A study of Mus musculus with 23 samples.

Results

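Axon guidance ligands and receptors are the cell-surface and secreted proteins that steer growing axons and migrating neurons. Ephrins on 1 cell bind Eph receptor tyrosine kinases on another, mostly with repulsion at the contact. Semaphorins signal through plexins, and the secreted class 3 semaphorins mostly need a neuropilin as co-receptor. Slits repel axons and migrating neurons through Robo receptors, while netrins attract or repel them depending on the receptor they meet. In the embryonic forebrain these families are known for guiding interneurons out of the ganglionic eminences and for routing thalamic and cortical axons.

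The members were all probes whose annotated gene symbol follows the naming pattern of the Eph receptors, ephrins, semaphorins of classes 3 to 7, plexins, the neuropilins Nrp1 and Nrp2, slits, Robo receptors and netrins. This rule used no measured value. It found 90 of the 25697 probes, which stand for 59 of 16593 genes in 15 role groups. Of these genes, 42 had 1 probe and 17 had several. Plxnb2, Robo3, Ephb2, Sema5b and Sema4c had no probe under these symbols.

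Meis1 encodes a homeobox transcription factor, and the C57BL/6J mice of the study had 0, 1 or 2 copies of a Meis1 allele that the labels do not describe further. Each of the 23 arrays held RNA of a separate mouse. From E12.5 there were 16 samples labelled forebrain. Of these 5 were wild type (3 males and 2 females), 6 heterozygous (3 of each sex) and 5 homozygous (3 males and 2 females). The adult samples, labelled brain, were 3 wild-type and 4 heterozygous males of 23 weeks, and no adult homozygotes were analysed here. For the tissue, the title of the series names ganglionic eminences, which the sample labels do not. The first part of the mouse numbers sorts the embryos into 4 litters, a reading that the labels do not state. Litter 509 gave 1 embryo of each genotype. Litter 542 gave 2 wild types, 2 heterozygotes and 1 homozygote, and litter 551 gave 2 wild types, 1 heterozygote and 1 homozygote. Litter 549 gave 2 heterozygotes and 2 homozygotes but no wild type.

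A probe counts as detected on an array where its detection p-value, set against the negative control probes, is under 0.05. Median signal lay between 164 and 210 on the embryonic arrays and between 119 and 143 on the adult arrays, and 13446 to 14153 probes were detected per array. Values below are log2 signal after background correction and normalization, errors beside group means are standard deviations, and errors beside differences are standard errors of the limma fit. Adjusted p-values are Benjamini-Hochberg values over all probes tested, with a threshold of 0.05. Levels of different probes are not on a common scale, so only the same probe is compared between arrays. Since these are whole tissue samples, fewer cells of a type and less RNA per cell cannot be told apart. Of the 9 telencephalic marker genes with a probe, 5 were detected on most embryonic arrays, while Emx2 and Gsx2 were detected on none.

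Meis1, as the targeted gene, checks the genotype labels. Its signal was 9.98 ± 0.17 (SD, n = 5) in wild types, 9.62 ± 0.14 (n = 6) in heterozygotes and 8.80 ± 0.23 (n = 5) in homozygotes. The homozygotes lay below both other groups on every array. The difference from wild type was -1.22 ± 0.12 (limma, adjusted p = 0.000287) in homozygotes and -0.40 ± 0.11 (adjusted p = 0.999) in heterozygotes. In adults Meis1 was 8.17 ± 0.32 (n = 3) in wild types and 7.56 ± 0.34 (n = 4) in heterozygotes (adjusted p = 0.387).

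At E12.5, 56 member probes of 43 genes were measured well enough to be tested, which required detection on at least 5 of the 16 embryonic arrays. Of the genes with a probe, all 3 ephrin-B ligands passed that filter, as did 6 of 9 EphA receptors, 3 of 4 EphB receptors and 4 of 5 ephrin-A ligands. Among the semaphorins it kept 5 of 5 genes of class 4 and 4 of 4 of class 6 but only 3 of 7 genes of class 3. It kept 1 of 4 A-type plexins, 3 of 4 other plexins, 1 of 2 neuropilins, 2 of 3 slits, 3 of 3 robos and 3 of 4 netrins. Efna2, Ntn1, Plxna1, Plxna4, Sema3c, Sema3d, Sema3e and Sema3g, each with 1 probe, were detected on no array of either stage. An undetected probe alone does not show that its gene is not expressed. For Sema3f, 1 probe was detected on no array while its other probes were detected on every array. Ntn1 encodes netrin-1, the founding guidance cue of its family, and Plxna1 and Plxna4 encode main signalling receptors for class 3 semaphorins. At the other end, 36 member probes were detected on every array.

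No member differed significantly between homozygotes and wild types: 0 of 56 probes passed the threshold, beside 0.0488% of all 14340 probes tested (7 probes). At an unadjusted p under 0.05 there were 8 member probes (14.3%), close to the 11.8% among all probes. Differences were positive for 40 of the 56 member probes (71.4%), against 50.6% of all probes, and their median was 0.11 against 0.003. With 1 probe a gene, 27 of 43 members were positive with a median of 0.08. For no member probe did the homozygous and wild-type arrays separate fully, against 0.823% of all probes.

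**Figure D1:**
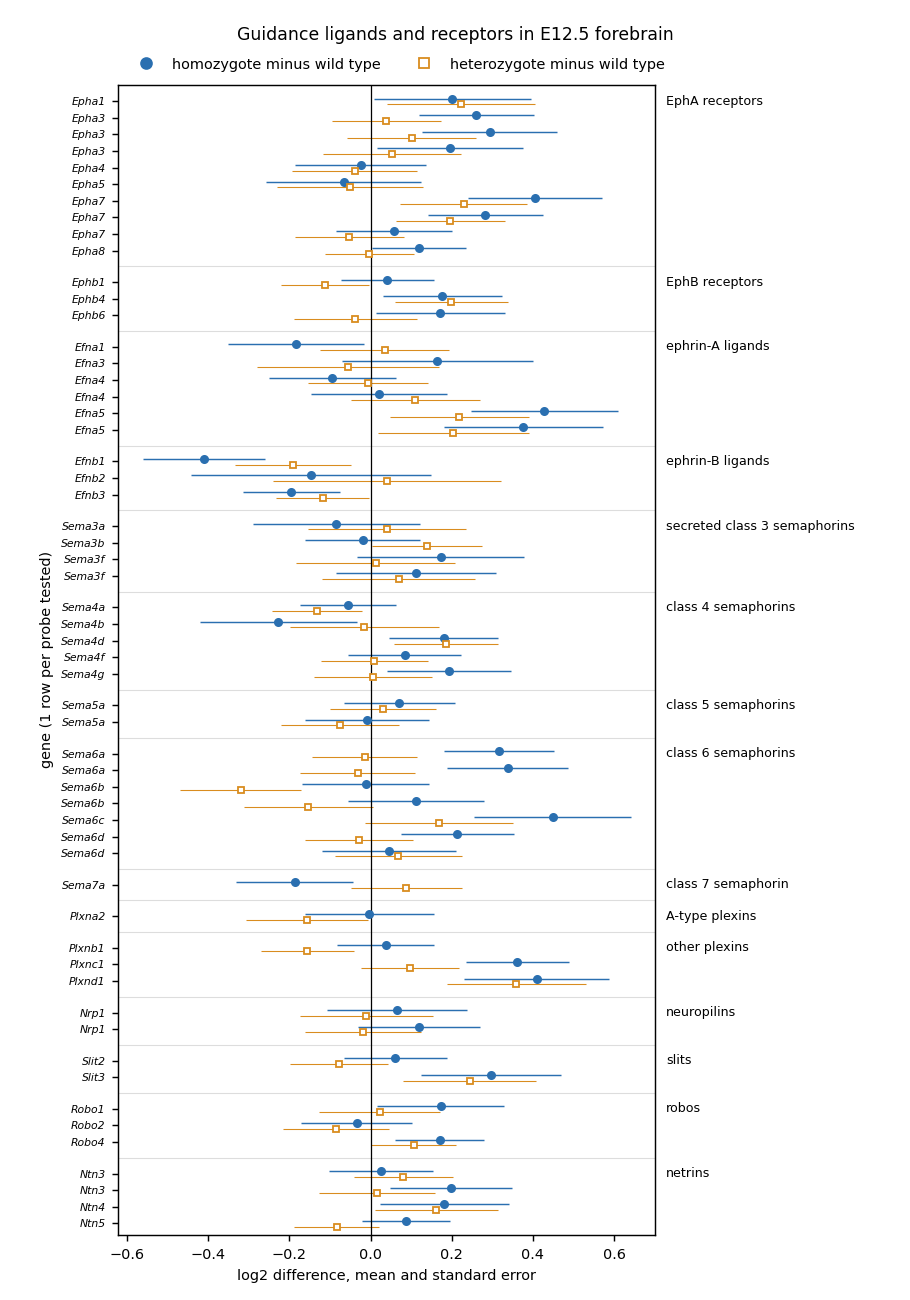
Log2 difference from wild type (x axis) with its standard error for each of the 56 member probes tested at E12.5 (1 row per probe, grouped by role), with filled circles for homozygotes and open squares for heterozygotes. Most circles lie right of 0, the ephrin-B ligands lie left of it, and no probe passed the threshold in either comparison.

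No gene of the Eph and ephrin families passed the threshold between homozygotes and wild types. Among EphA receptors, which mostly bind the lipid-anchored ephrin-A ligands, 4 of 6 genes had positive differences with a median of 0.09. All 3 EphB receptors were positive with a median of 0.17. Of the ephrin-A ligands 2 of 4 were positive with a median of 0.04. The 3 transmembrane ephrin-B ligands all had negative differences, of -0.41 for Efnb1, -0.20 for Efnb3 and -0.15 for Efnb2. Efnb1 is an X-linked ligand of EphB receptors. Its signal in wild types was 9.77, 10.16, 10.20, 10.29 and 10.35, and in homozygotes 9.44, 9.77, 10.09, 10.29 and 10.32. In heterozygotes it ran from 9.81 over a median of 10.19 to 10.50. The 3 genotypes overlapped over most of their range. With litter and sex in the fit, Efnb1 differed by -0.41 ± 0.15 in homozygotes (limma, adjusted p = 0.381). Within the litters that held both genotypes the homozygotes lay lower each time, by -0.27 in litter 509, -0.41 in litter 542 and -0.59 in litter 551.

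Plexins B to D, the receptors of class 3, 4 and 7 semaphorins among others, all had positive differences, with a median of 0.36 over 3 genes. Plxnc1 encodes the receptor of Sema7a and had the smallest unadjusted p of the members. Its signal in wild types was 4.92, 5.0, 5.28, 5.29 and 5.31, and in homozygotes 5.25, 5.31, 5.46, 5.50 and 5.58. In heterozygotes it ran from 4.83 over 5.15 to 5.44. The homozygous arrays filled the upper end with an overlap of 3 wild types, near the limit of detection: Plxnc1 was detected on 1 of 5 wild-type, 2 of 6 heterozygous and 4 of 5 homozygous arrays. Plxnc1 thus reached the 5 arrays that the filter required only with the homozygous arrays, the group in which it was highest. The difference was 0.36 ± 0.13 (adjusted p = 0.381), and within litters it was 0.50, 0.15 and 0.16. Sema7a itself, a lipid-anchored semaphorin, differed by -0.19. Plxnd1, a receptor for Sema3e that is prominent in blood vessels, ranged from 5.60 to 6.12 in wild types and from 5.71 to 6.47 in homozygotes, so that the groups overlapped widely. Its difference was 0.41 ± 0.18 (adjusted p = 0.414), but -0.01 among males alone, in a fit that also left out the litter term. The difference in homozygotes was 0.82 ± 0.30 larger in females than in males, which missed the threshold as well (adjusted p = 0.999).

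Class 6 semaphorins are transmembrane ligands of A-type plexins. Of their 4 genes 3 had positive differences in homozygotes, with a median of 0.28. Sema6c was 6.15, 6.65, 6.70, 6.75 and 7.06 in wild types and 6.88, 6.99, 7.01, 7.21 and 7.23 in homozygotes. All but 1 wild-type array lay below every homozygous array, while the heterozygotes spread from 6.12 to 7.52. The difference was 0.45 ± 0.19 (adjusted p = 0.41), and 0.15, 0.29 and 0.83 within litters. Sema6a was 5.19, 5.30, 5.43, 5.47 and 5.52 in wild types and 5.51, 5.57, 5.62, 5.66 and 6.08 in homozygotes. Here the groups met at a single pair of values, at a signal that reached detection on 3 of 5 wild-type, 3 of 6 heterozygous and 5 of 5 homozygous arrays. The difference was 0.34 ± 0.15 (adjusted p = 0.414), and a second Sema6a probe gave 0.32. That second probe was detected on only 5 embryonic arrays, the fewest that the filter allowed. It thus lay near the limit of detection, and its similar difference adds little to that of the first probe.

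**Figure D2:**
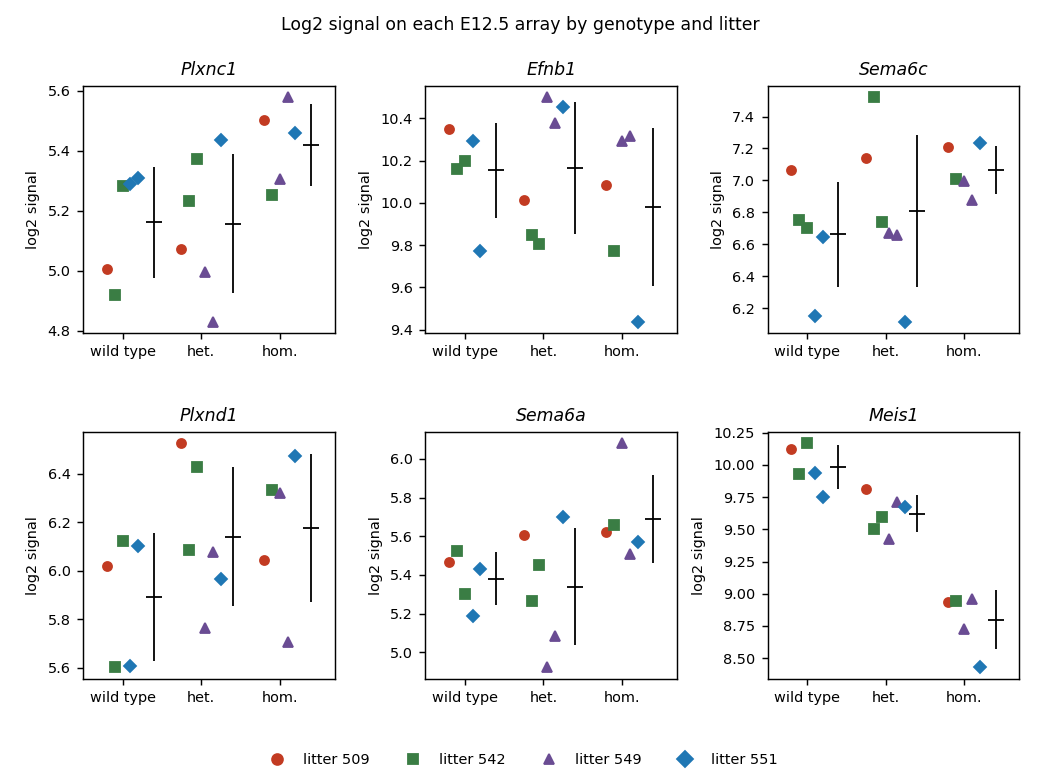
Log2 signal (y axis, its own range in each panel) on each E12.5 array for Plxnc1, Efnb1, Sema6c, Plxnd1, Sema6a and Meis1 by genotype, with colour and shape for the litter and the mean and SD beside each group. The Meis1 homozygotes lie apart from the other groups, whereas the groups of every guidance gene overlap.

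In the remaining families no gene passed the threshold either. Secreted class 3 semaphorins had 1 of 3 genes positive (median -0.02) and class 4 semaphorins, which act in nerve and immune cells, 3 of 5 (median 0.08). Slits were positive in 2 of 2 genes, robos in 2 of 3 and netrins in 3 of 3, with medians of 0.18, 0.17 and 0.18. Sema5a differed by -0.01 ± 0.15 (adjusted p = 0.985) and Nrp1, the co-receptor of Sema3a, by 0.07 ± 0.17 (adjusted p = 0.891). Several probes of a gene did not always run the same way: of 11 genes with more than 1 probe tested, 8 had the same sign in all of them. The remaining probes with an unadjusted p under 0.05 were 1 of Epha7 (0.41, adjusted p = 0.407), 1 of Efna5 (0.43, adjusted p = 0.41) and the second of Sema6a.

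A list of further receptors, partners and effectors of guidance, among them the netrin receptor Neo1, the Unc5 receptors, the repulsive guidance molecules and the collapsin response mediators, had no call either. Of its 25 genes tested 15 had positive differences, against 50.6% of all probes, with a median of 0.04. By limma 0 passed the threshold, and 2 had an unadjusted p under 0.05, against 11.8% of all probes. The Unc5 family are repulsive netrin receptors, and Unc5a had the smallest p of the list with 0.41 ± 0.12 (adjusted p = 0.381).

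Marker genes of other cell types were compared in the same embryos. All 6 platelet markers had negative differences in homozygotes and 3 passed the threshold, and the summed signal of the list was 578 to 1200 in wild types, 951 to 1433 in heterozygotes and 248 to 387 in homozygotes. Every homozygous array lay below both other genotypes, which overlapped. Meningeal and pericyte markers had positive differences for 8 of 9 genes, with 0 past the threshold and overlapping sums of 5221 to 8768 and 6551 to 8513. Diencephalic, midbrain and hypothalamic markers were positive for 7 of 8 genes, with 0 past the threshold and sums of 5745 to 9931 and 6372 to 10822. Macrophage markers had negative differences for 5 of 6 genes (median -0.22), with 0 past the threshold and overlapping sums of 885 to 1192 in wild types and 667 to 987 in homozygotes. Markers of young neurons were negative for 6 of 8 genes (median -0.18), with 0 past the threshold and sums of 9573 to 15046 and 8547 to 15247. The part of these markers in the differences of the guidance genes was not tested.

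In heterozygotes at E12.5, 0 of 56 member probes differed significantly from wild type, nor did any of all probes (0%, limma). At an unadjusted p under 0.05 there was 1 member probe (1.79%), against 3.32% of all probes. The arrays of both groups separated fully for 0 member probes, against 0.139% of all. Differences were positive for 31 of 56 probes (55.4%), against 49.7% of all, with a median of 0.01. The 1 probe was of Sema6b, which was 7.15, 7.22, 7.24, 7.66 and 8.06 in wild types and 7.09, 7.30, 7.30, 7.58 and 8.24 in homozygotes. In heterozygotes it ran from 6.69 over a median of 7.03 to 7.93, so that the heterozygotes reached lowest but overlapped both groups. The difference was -0.32 ± 0.15 (adjusted p = 0.999), with -0.13, -0.54 and -0.12 within litters. Plxnd1 (0.36), Slit3 (0.24), Ephb4 (0.20), a receptor of Efnb2 known from blood vessels, and Sema4d (0.19), the ligand of Plxnb1, followed at the same adjusted p.

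Between homozygotes and heterozygotes, which shares the homozygous arrays with the first comparison and the heterozygous arrays with the second, 0 of 56 member probes passed the threshold, against 0.0697% of all probes. At an unadjusted p under 0.05 there were 5 (8.93%), against 8.33% of all. The groups separated fully for 0 member probes, against 0.272% of all. Positive differences made up 71.4% of the members and 53.8% of all probes. The members with the smallest p were Sema6a (0.37 ± 0.13, adjusted p = 0.599), Plxnc1 (0.26), Sema6b (0.31), Sema7a (-0.28) and Sema6d (0.24). With 1 probe a gene, all 4 class 6 semaphorin genes had positive differences here, and 0 were called. A second Sema6d probe differed by -0.02, so the sign for that gene depends on the probe.

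Meis proteins are known to bind DNA at the letters TGACAG, so the promoters of the members were searched for them. The RefSeq promoter table of build GRCm38.p6 held windows for 51 of the 59 genes, and the 250 bases before each start were read on both strands. The letters stood in 11 of 65 member windows (16.9%), in 9 genes, against 15.9% of all 32851 windows of the same length. These genes were Efna3, Efnb2, Ntn4, Plxna2, Robo2, Sema3g, Sema4d, Sema6c and Sema7a. The 250 bases upstream are shown 5′ to 3′ on the gene's strand for both members with the smallest p in homozygotes, Plxnc1 (chr10:94944846-94945095, minus strand) and Efnb1 (chrX:99135811-99136060, plus strand). They are followed by 1 of the windows of Sema6c (chr3:95164089-95164338, plus strand) and by Sema7a (chr9:57939862-57940111, plus strand), in which capitals mark the searched letters. Neither of the first pair holds the letters on either strand, the Sema6c window holds them 2 times in close succession and the Sema7a window 1 time. A match describes the letters of a window and is no measured binding site.
Plxnc1: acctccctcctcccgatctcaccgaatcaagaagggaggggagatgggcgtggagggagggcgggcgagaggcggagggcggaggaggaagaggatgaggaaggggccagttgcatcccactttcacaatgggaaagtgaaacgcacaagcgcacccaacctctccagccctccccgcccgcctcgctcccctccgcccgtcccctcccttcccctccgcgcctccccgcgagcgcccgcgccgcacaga
Efnb1: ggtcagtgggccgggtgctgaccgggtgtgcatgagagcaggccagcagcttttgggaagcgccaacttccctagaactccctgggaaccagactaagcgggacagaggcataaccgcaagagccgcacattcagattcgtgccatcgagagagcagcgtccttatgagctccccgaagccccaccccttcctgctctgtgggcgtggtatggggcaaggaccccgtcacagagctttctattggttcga
Sema6c: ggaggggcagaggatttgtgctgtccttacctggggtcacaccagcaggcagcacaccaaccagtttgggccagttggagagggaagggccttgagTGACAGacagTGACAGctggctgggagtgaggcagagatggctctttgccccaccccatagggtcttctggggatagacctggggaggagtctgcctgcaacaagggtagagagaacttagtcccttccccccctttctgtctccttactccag
Sema7a: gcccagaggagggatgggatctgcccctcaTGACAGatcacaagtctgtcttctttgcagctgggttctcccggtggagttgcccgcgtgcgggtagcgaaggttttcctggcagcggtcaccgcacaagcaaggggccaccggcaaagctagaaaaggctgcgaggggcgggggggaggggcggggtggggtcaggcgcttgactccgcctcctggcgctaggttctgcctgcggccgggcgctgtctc
The Plxnc1 window holds 22 CpG pairs and the Sema6c window shown 0, where the median was 14 over member windows and 6 over all windows. The other Sema6c window, at chr3:95160170-95160419, holds 0 matches of the motif and 15 CpG pairs.

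Members differed more between litters than between genotypes at E12.5. Between litters, 18 of 56 member probes (32.1%), from 15 genes, differed past the threshold in an F-test of the litter term, which is near the 34% of all probes (4878 of 14340). At an unadjusted p under 0.05 there were 22 (39.3%), against 46.5% of all. The litter term took a median of 37% of the variance of a member probe, against 41.8% over all probes. Genotype took 8.48%, against 8.07% over all probes, and sex 2.00%, against 1.98%, in terms that hold fewer groups. Among the fitted terms litter was the largest in 45 of 56 member probes, a count not made for all probes. By role, the probes that represent 3 of 5 class 4 semaphorins, 3 of 6 EphA receptors and 2 of 3 ephrin-B ligands were called. None of those for 4 ephrin-A ligands, 3 robos, 3 netrins or 2 slits was called, though a second probe of Efna5 was. Epha3 was not called by its representing probe in this F-test (adjusted p = 0.573). Its other probes were called (adjusted p = 0.00498 and 0.0175).

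Receptors differed in both directions between the litters. Plxnb1, the receptor of Sema4d, ran from 6.09 to 6.34 in litter 509, 6.26 to 6.61 in litter 542, 6.75 to 7.41 in litter 549 and 6.91 to 7.07 in litter 551. Litters 549 and 551 thus lay above both others on every array (adjusted p = 0.000503). Epha7, an EphA receptor of cortical and thalamic maps, was likewise higher in litters 549 and 551, with 7.46 to 7.66 in litter 509, 7.39 to 7.57 in litter 542, 7.68 to 8.47 in litter 549 and 7.94 to 8.42 in litter 551 (adjusted p = 0.00183). A second Epha7 probe was called with its highest mean in litter 509 and its lowest in litter 551, so the direction for this gene depends on the probe. Plxna2 was 9.23 to 9.53 in litter 509 and no higher than 8.92 on any other array (adjusted p = 0.00564). Epha5 stood apart in the same litter, with 7.36 to 7.60 against at most 6.96 elsewhere (adjusted p = 0.0108). Plxnb1 and the first Epha7 probe split the litters as the mean signal before normalization did. That mean was 682 to 906 on the arrays of litters 549 and 551 and 561 to 645 on those of litters 509 and 542. Litter and any difference between these sets of arrays cannot be told apart.

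Semaphorins were mostly highest in litter 509. Sema4a ran from 9.77 to 9.87 there, against 9.17 to 9.68 in litter 542, 8.98 to 9.31 in litter 549 and 8.98 to 9.15 in litter 551 (adjusted p = 0.00175). Sema6b ran from 7.93 to 8.24 in litter 509 and reached 7.66, 7.58 and 7.30 in the other litters, and Sema4f from 7.38 to 7.63 against 7.10, 7.07 and 6.93 (adjusted p = 0.0032 and 0.0109). On all 3 arrays of litter 509 these genes were above every other embryo. Sema4b was an exception, highest in litter 542 with a deviation of 0.29 from the mean of the litters and lowest in litter 551 with -0.46 (adjusted p = 0.0254). Ephb1, the receptor of Efnb1 to Efnb3, was 10.53 to 10.79 in litter 509 and at most 10.39 elsewhere (adjusted p = 0.0328). For the ligands the order differed: Efnb1 deviated by 0.38 in litter 549 (adjusted p = 0.0366), and Efnb2 by 0.67 in litter 551 and -0.55 in litter 509. The litter call of Efnb1, 1 of the 2 called ephrin-B ligands, was lost under 16 of 30 alternatives, and those of Ephb1 and Sema4b under 7 each. Of the 18 called member probes 11 had their highest mean in litter 509 and 9 their lowest in litter 551, where 32.8% and 38.9% of all called probes had theirs.

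**Figure D3:**
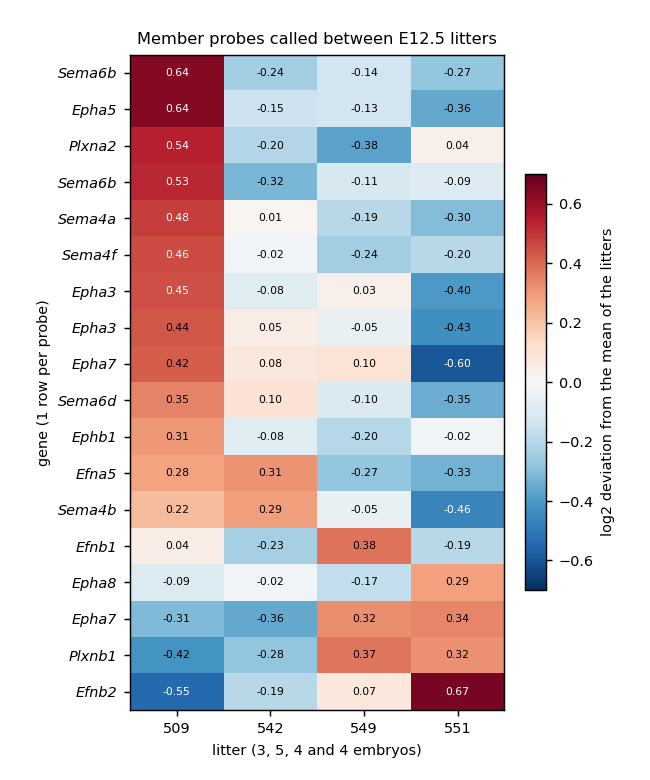
Deviation of each litter from the mean of the 4 litters in log2 signal, adjusted for genotype and sex (colour and printed number), for the 18 member probes called between litters (rows). Litter 509 is the highest of the litters in 11 rows, with Sema6b and Epha5 at 0.64, while Plxnb1, Efnb2 and 1 probe of Epha7 run low in it.

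The litter calls rest on few embryos. Without litter 509, 7 of 54 member probes were called, beside 23.8% of all probes, and Sema4a, Sema6b, Plxna2, Epha5, Sema4f and Ephb1 were no longer among them. Without litter 551, 9 of 52 were called, beside 9.2% of all probes. Leaving out homozygous male 3 or heterozygous female 2 left 11 calls, a count of members alone. Without the share of all probes, it shows no loss particular to the members. Several marker lists moved with the litters as well. The summed signal of the 11 diencephalic, midbrain and hypothalamic markers with a probe was 9931 to 10930 in litter 509 and 4503 to 8416 in the other litters, with 4 of 8 tested genes called and Otp and Sim1 detected on no array. Young-neuron markers, 6 of 8 of them called, summed to 12000 to 15247 in litter 509, 8547 to 12115 in litter 542, 9186 to 11135 in litter 549 and 11890 to 13687 in litter 551. Meningeal and pericyte markers were called for 5 of 9 genes and telencephalic markers for 3 of 6, beside 34% of all probes. The part of these markers in the litter differences of the guidance genes was not tested. In the list of further guidance genes 13 of 25 were called between litters, against 34% of all probes, with the smallest adjusted p for Flrt3, a ligand of Unc5 receptors.

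In the adult brain, 0 of 55 member probes of 42 genes differed significantly between heterozygotes and wild types, as did 0% of the 14266 probes tested (limma). At an unadjusted p under 0.05 there were 10 member probes (18.2%), against 10.6% of all. Differences were positive for 28 of 55 (50.9%), against 51.3% of all. The arrays of both genotypes did not overlap for 7 member probes of 6 genes (12.7%), against 10.4% of all probes.

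Robo1, the main receptor of slits, was 8.10, 8.16 and 8.0 in the 3 wild types and 7.72, 7.76, 7.56 and 7.89 in the 4 heterozygotes. All heterozygotes lay below all wild types, with a difference of -0.35 ± 0.10 (adjusted p = 0.378). Ntn4, a netrin of basement membranes, was 5.10, 5.15 and 4.95 in wild types and 4.79, 4.54, 4.95 and 4.70 in heterozygotes. The heterozygotes were again lower, though only just, and Ntn4 was detected on 2 of their 4 arrays (difference -0.33 ± 0.11, adjusted p = 0.416). Sema3f, a secreted semaphorin that acts through Nrp2, was 7.21, 7.11 and 7.22 in wild types and 7.50, 7.33, 7.67 and 7.37 in heterozygotes. It lay higher in every heterozygote by both of its probes, at 0.29 ± 0.10 and 0.37 ± 0.12 (adjusted p = 0.416 and 0.413). Ephb6, an Eph receptor without kinase activity, was 6.50, 6.28 and 6.59 in wild types and 6.67, 6.60, 6.82 and 6.76 in heterozygotes, higher in the heterozygotes by a small gap (0.26 ± 0.11, adjusted p = 0.449). Efnb1 was 6.25, 6.04 and 6.19 in wild types and 6.38, 6.37, 6.36 and 6.40 in heterozygotes, a separated but small difference of 0.22 ± 0.09 (adjusted p = 0.451). Sema4d was the other gene without overlap, lower in heterozygotes at -0.23 ± 0.10.

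**Figure D4:**
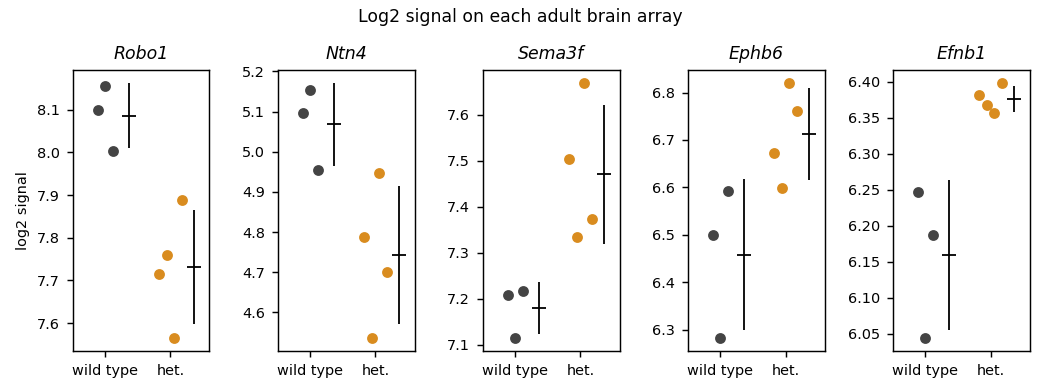
Log2 signal (y axis, its own range in each panel) on each adult array for Robo1, Ntn4, Sema3f, Ephb6 and Efnb1 in 3 wild types and 4 heterozygotes, with the mean and SD beside each group. The genotypes do not overlap in any of the 5 panels, and the differences are at most 0.35 on the log2 scale.

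Marker lists for young neurons and platelets separated the adult genotypes too. The young-neuron sum was 5994 to 6160 in wild types and 5374 to 5529 in heterozygotes, with 8 of 8 genes detected and 0 called. The platelet sum was 195 to 207 against 169 to 175, with 4 of 6 genes detected on most arrays. The sums of the other marker lists overlapped. The part of the separated lists in the member differences was not tested. Of 25 further guidance genes tested in adults, 16 had positive differences, against 51.3% of all probes. None of these genes was called, and 3 had an unadjusted p under 0.05, against 10.6% of all probes. The effect of 1 copy in adults was then set against that at E12.5. For 66 member probes, 0 differed past the threshold in this interaction, as in 0% of all probes, and 5 (7.58%) had an unadjusted p under 0.05, against 6.78% of all. The smallest p was that of Ntn4, at -0.60 ± 0.21 for the adult minus the embryonic effect (adjusted p = 0.604). For the effect of homozygosity in females against males, 1 of 56 (1.79%) had an unadjusted p under 0.05, against 3.03% of all.

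Between wild-type adult brain and wild-type E12.5 forebrain most members changed. With all 23 arrays normalized together, 45 of 66 member probes (68.2%), from 33 genes, passed the threshold, near the 73.6% of all 16352 probes. Higher in adults were 20 probes (30.3%) of 15 genes, against 33.4% of all, and lower were 25 (37.9%) of 19 genes, against 40.2% of all. The median difference was -0.10 for the members and -0.12 for all probes. With median scaling in place of quantile normalization, 17 member probes were higher and 30 lower, against 25.4% and 49.4% of all probes, and the median of all probes moved from -0.12 to -0.34. Stage, the labelled tissue and any difference between the embryonic and adult array sets cannot be told apart here.

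The members higher in adults were led by semaphorins and their receptors. Plxnb3, a plexin known from oligodendrocytes, was 4.56, 4.43, 4.57, 4.45 and 4.64 at E12.5, where it was detected on no array, and 7.44, 7.66 and 7.81 in adults. Measured against the limit of detection it was at least 5.40-fold higher in adults (adjusted p = 4.16e-16). Sema7a was 6.96, 7.18, 7.74, 7.65 and 7.64 at E12.5 and 10.63, 10.45 and 10.65 in adults. The stages lay far apart on every array, and Sema7a rose by 3.08 ± 0.15 (adjusted p = 8.97e-14). Ntn5, a netrin-like gene, was 5.92 ± 0.21 (n = 5) and 8.75 ± 0.24 (n = 3) and rose by 2.81 ± 0.12 (adjusted p = 5.79e-15). Sema6b went from 7.23 ± 0.38 to 9.78 ± 0.19 and Sema4f, a class 4 semaphorin, from 6.78 ± 0.21 to 9.21 ± 0.01, gains of 2.45 and 2.42. Ephb6 (1.37 ± 0.15), Sema6d (1.25 ± 0.16) and Sema4a (1.20 ± 0.12) followed. By role, 3 of 5 class 4 semaphorins rose and 0 fell, with Sema4d (0.80) beside those named, although Sema4b and Sema4g passed the threshold as lower under median scaling (-0.62 and -0.69).

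Ephrins and their receptors led the members that fell. Efna4 was 9.29, 8.51, 8.61, 8.79 and 9.04 at E12.5 and 4.45, 4.74 and 4.53 in adults, where no array detected it. That placed it at least 13.5-fold lower in adults (adjusted p = 3.34e-16), and at least 8.89-fold by its second probe. Efnb1 was 9.50, 10.01, 10.07, 9.92 and 9.88 at E12.5 and 6.96, 6.72 and 6.89 in adults. It fell by 3.12 ± 0.15 on the log2 scale (adjusted p = 2.91e-14), with no overlap of the stages. Epha3, the EphA receptor of several ephrin-A ligands, was 9.30 ± 0.41 and 6.77 ± 0.43, a change of -2.51 ± 0.20 (adjusted p = 3.67e-10). Robo1 went from 10.25 ± 0.25 to 9.01 ± 0.08 (-1.25 ± 0.16), and its ligand Slit2 from 8.95 ± 0.19 to 8.09 ± 0.15 (-0.87 ± 0.14). Sema6c (-1.26 ± 0.21), Sema3f (-0.89 ± 0.20) and Efnb2 (-0.85 ± 0.30) were lower in adults too. For Efnb2 the adjusted p of 0.0156 rose to 0.0576 without background correction and to at most 0.0807 when 1 of 3 single arrays was left out.

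**Figure D5:**
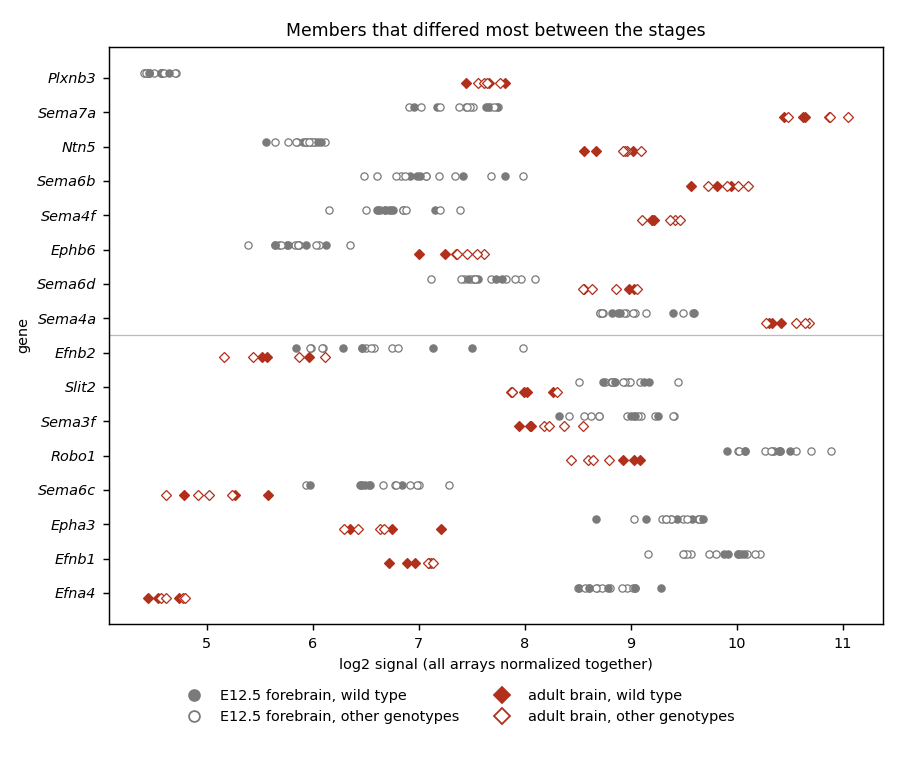
Log2 signal (x axis, all arrays normalized together) on each array for the 8 members with the largest rise and the 8 with the largest fall between wild-type E12.5 forebrain and wild-type adult brain. Grey circles are embryos and red diamonds are adults, filled for wild types. The stages are separate for Plxnb3, Sema7a, Ntn5, Sema6b, Sema4f, Efnb1, Epha3 and Efna4 and meet for Efnb2.

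Counted with 1 probe a gene, 1 of 7 EphA receptors rose and 3 fell, and 1 of 4 ephrin-A ligands rose (Efna3, 0.98) and 3 fell. Ephrin-B ligands fell in 2 of 3 genes, with Efnb3 at 0.10, or -0.09 under median scaling. Robos fell in 2 of 3, netrins rose in 1 and fell in 2 of 3, and slits fell in 1 of 2. Neither of the 2 A-type plexins nor either of the 2 neuropilins passed the threshold, but under median scaling Nrp1 did, at -0.80. Sema3a, the classic repellent of its class, was higher in adults at 0.81 ± 0.21, a call lost under median scaling (0.36, adjusted p = 0.114). The probes of Epha7 contradicted each other: one went from 6.94 to 4.97 (-1.93 ± 0.16), another from 6.49 to 7.53 (0.82 ± 0.17), both past the threshold, and the remaining probe differed by 0.18. Of 14 genes with several probes tested, 12 had 1 sign throughout and Epha7 was the 1 gene with calls in both directions. Among 26 further guidance genes 10 rose and 13 fell, against 33.4% and 40.2% of all probes.

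Cell type markers separated the stages at the same time. In the same fit all 5 oligodendrocyte markers rose, with a median of 6.13, and all 5 astrocyte and 3 mature-neuron markers rose, with medians of 3.12 and 3.49. Progenitor markers fell for 6 of 7 genes (median -2.87), meningeal and pericyte markers for 7 of 9 (-1.91), and telencephalic markers for 6 of 6 (-2.64). Mog and Mobp of the oligodendrocyte list were detected on no embryonic array. With each stage normalized apart, the oligodendrocyte sum was 201 to 285 in embryos and 15284 to 18506 in adults, and the progenitor sum 17249 to 25048 and 5441 to 6340. The astrocyte sum ran the other way from the fit of its genes, at 4673 to 7158 in embryos and 4012 to 5483 in adults, although Gfap, Aqp4 and S100b were detected on no embryonic array. Sums of stages normalized apart are not on 1 scale. The part of these markers in the stage differences of the members was not tested.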

How the data were processed

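Illumina expression arrays of 25697 probes were used. Per the labels' protocols, RNA came from Trizol and RNeasy columns and was labelled with biotin by an Ambion MessageAmp kit. GenomeStudio 2011.1 is named in the submitters' processing notes. The deposited table that was not normalized gives a linear intensity and a detection p-value for each probe and array, per the file headers. A second deposited table holds the authors' processed intensity. Its background was subtracted, since 27.0% of embryonic and 23.0% of adult values lie below 0, and its column medians of 31.1 to 31.3 and 16.2 to 16.3 show that the stages were scaled apart. No label names its method. Each of its columns ranked its probes most like the array of its own name, in 16 of 16 and 7 of 7 cases, and it served as an alternative.

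The signals that were not normalized were corrected with neqc of limma 3.58.1 (R 4.3.3, offset 16), normalized by quantiles and expressed as log2 values, apart for each stage and jointly for the stage comparison. Probes detected (p under 0.05) on at least 5 embryonic, 3 adult or 3 joint arrays were kept, 14340, 14266 and 16352 in number. Linear models (lmFit and eBayes, two-sided, Benjamini-Hochberg) held genotype, sex and litter for embryos, genotype for adults, and groups of stage and genotype with sex and litter jointly. The models were tested on simulated data. No 2 arrays held identical values. The labels mark the samples as separate mice, and the number of arrays limits the precision. A gene not detected in 1 group is given as a bound, its other group's mean over the higher of the lowest detected signal and its own, per array.

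The members and lists were chosen with earlier results of these data known. The probe with the highest mean over all arrays stood for its gene. In counts with 1 probe a gene it was the highest among the probes tested, for Sema3b at E12.5 a different probe. Named were Meis1, the 5 members of smallest p in each genotype comparison (all past the threshold, where more), the 10 of smallest p between litters, the 8 largest called changes each way between stages, and 1 member of each role group left. Genes added outside that rule, such as those without overlap in adults, were chosen after their values were seen. Marker sums add linear normalized signal over 1 probe a gene. All 90 member probes matched their symbol in the RefSeq gene table through the Entrez number. Replicate numbers did not pair the samples. Alternatives covered the processed table, background correction, offset, filters, model terms, array weights, males alone, and leaving out each array or litter.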

Additional observations from a re-analysis of the deposited data

Results flagged for a closer look

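In 9 of 119 groups of 4 to 6 arrays tested, 1 array of a named gene lay farther from the others than Dixon's critical value allows, where chance gives about 1 in 20 groups. The groups share arrays, the comparison took no account of litter, and no cause was tested. Homozygotes at E12.5 held 5 of these groups. Ephb6, an Eph receptor without kinase activity, was 6.55 in homozygous female 2, with the nearest other homozygote at 6.04. In the same embryo the ligand Efna4 was 9.32, with the nearest at 8.95. Homozygous male 3 stood high for Slit2 (9.72, nearest 9.25) and for Ntn5 (6.31, nearest 6.16), and is the only homozygote of litter 509. Sema6a was 6.08 in homozygous female 1 and at most 5.66 in the other homozygotes.

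Efnb2, a transmembrane ligand of EphB receptors, was 8.23 in heterozygous female 1 at E12.5, well above the 6.76 of the next heterozygote. It is the only heterozygote of litter 551, where Efnb2 deviated by 0.67 from the mean of the litters. Sema4f was 7.38 in wild-type male 2 at E12.5, with the next wild type at 6.98. It is the only wild type of litter 509, whose 3 arrays ran from 7.38 to 7.63 for Sema4f (litter adjusted p = 0.0109 in limma). In adult heterozygotes Ephb4 was low in replicate 1 (4.55, nearest 5.04), and Slit2 was high in replicate 4 (7.44, nearest 7.06).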

How the results depend on the processing

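The genotype comparisons at both stages called 0 member probes under every alternative run, and the interactions were not refitted. Over the named genes, 1468 alternative values kept their side of the threshold and, outside the litter comparison, their direction. Another 46 lost the call and 16 changed sign, all of the latter in homozygotes against wild types. Litter values were ranges between the highest and lowest litter, which cannot change sign, so a changed order of the litters was not counted. Sema5a turned to 0.018 with array weights, 0.056 without the litter term, 0.013 with litter as a random block and 0.13 in males alone, and ranged from -0.14 to 0.10 with 1 array left out. Nrp1 turned to -0.0027 without litter 549 and ranged from -0.015 to 0.20 with 1 array left out, and Plxnd1, at 0.41 over all embryos, turned to -0.0076 in males alone. The litter comparison called 7 member probes without litter 509, 9 without litter 551, 14 without litter 542 and 17 without litter 549, settings chosen after seeing the data, and 11 to 18 with 1 array left out. Efnb1 lost its litter call under 16 of 30 alternatives, Ephb1 and Sema4b under 7 each. The stage comparison gave 17 to 21 higher and 18 to 26 lower member probes with 1 array left out. These litter and stage counts are given here for members alone. Without the share of all probes, no change particular to the members can be read from them. Median scaling in place of quantile normalization gave 17 higher and 30 lower, against 20 and 25, and kept the direction and call of all 16 stage members named by rule. Meis1 kept its direction throughout, but its adjusted p in homozygotes was 0.564 among males alone and 0.148 against heterozygotes without litter 549. Replicate numbers did not pair the samples: correlations of same-numbered arrays ran from -0.46 to 0.74 in embryos and from -0.14 to 0.11 in adults. A replicate block called 0 member probes between genotypes, gave Sema5a 0.056, and called 18 higher and 24 lower between the stages. Depth is limited by signal over background: Plxnc1, Sema6a, Slit3 and adult Ntn4 lay near the detection limit.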

Other observations

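Further guidance genes outside the families above changed strongly between wild-type E12.5 forebrain and adult brain. Ngef, an exchange factor that acts downstream of EphA receptors, rose by 5.33 ± 0.16, and Ntng1, a membrane-anchored netrin of synapses, by 3.00 ± 0.16 (limma, joint normalization). Draxin, a secreted repellent of commissural axons, fell by 3.46 ± 0.12 on the log2 scale. The collapsin response mediators fell, with -3.16 ± 0.14 for Dpysl5, -3.43 ± 0.19 for Dpysl3 and -1.51 ± 0.12 for Crmp1. The netrin receptor Unc5a rose by 1.88 ± 0.13. Mical1, an enzyme that acts downstream of A-type plexins, fell by 1.98 ± 0.15, with 3 probes of like change.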
